A study of Mus musculus with 6 samples.

Results

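Retinal nuclei that carry the glycine transporter Slc6a9, a mark of glycinergic amacrine cells, but none of the AII marker Gjd2 were examined in rd10 mice 2 days after an injection of IL-27 or saline. Members were selected on measured counts: a nucleus was taken when it held at least 2 UMIs (unique molecular identifiers, 1 per captured transcript) of Slc6a9 (ENSMUSG00000028542), no UMI of Gjd2, and no UMI of Gad1, Gad2, Slc17a6, Slc17a8, Trpm1 or Abca8a. These 6 genes mark GABAergic, glutamatergic, ON bipolar and Müller cells. Nuclei had to exceed 500 UMIs, show 200 genes or more and stay under 5% mitochondrial UMIs, and of the 56205 that did so 1365 (2.43%) were members. The choice rests on measured values, so the levels of these 8 genes are descriptions. They were left out of the tests between cell groups and of the difference of IL-27 effects. They were not taken out of the IL-27 tests within members or within GABAergic nuclei.

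The data are single-nucleus RNA counts from whole retinas of B6.CXB1-Pde6b-rd10/J mice, in which a Pde6b mutation kills the rods. One eye received 20 ng of recombinant IL-27, a cytokine that signals through Il27ra and Il6st to the JAK-STAT pathway, or saline, into the vitreous at postnatal day 18, and retinas were collected at day 20. Saline was given for 3 libraries, numbered as replicates 1, 2 and 6, and IL-27 for another 3, numbered 4, 5 and 10. All animals, controls included, carried the rd10 mutation and had an injected eye, so neither a healthy nor an uninjected retina is represented. The labels do not say whether a library is 1 animal or a pool, and p-values measure only the spread between these libraries. Xist, which is expressed from the inactive X chromosome, stood at 2486 and 2279 CPM (counts per 1000000 UMIs) in members of saline replicate 2 and IL-27 replicate 5 and had no UMI in the other 4 libraries. The Y-linked genes Uty, Ddx3y, Kdm5d and Eif2s3y had the opposite pattern, so each group held libraries of both sexes and the libraries of a group were not all from 1 animal.

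Amacrine cells are the inhibitory interneurons of the inner retina. Most use either GABA or glycine as transmitter, and the glycinergic ones are mostly narrow-field cells whose processes run vertically between the ON and OFF layers of the inner plexiform layer. Slc6a9 encodes the plasma membrane glycine transporter that keeps glycine high inside these cells, and the AII cell, which couples to its neighbours through Gjd2 gap junctions and passes rod signals to the cone pathways, is the best known of them.

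The members numbered 243, 213 and 241 in saline replicates 1, 2 and 6 and 199, 229 and 240 in IL-27 replicates 4, 5 and 10. Their UMIs summed to between 1014263 and 1212447 per library, out of library totals of 36678332 to 48260748, and a member held a median of 4325 to 5000 UMIs depending on the library. For comparison, 432 nuclei met the same rule except that Gjd2 had at least 1 UMI (AII-like nuclei, medians of 4911 to 6126 UMIs), and 4902 nuclei held at least 2 UMIs of Gad1 plus Gad2 and no Slc6a9 (GABAergic nuclei, medians of 6626.5 to 7683 UMIs). GABAergic nuclei were not filtered on the other 4 genes. Of 3468 nuclei with at least 2 Slc6a9 UMIs, 23.0% had Gjd2, 25.5% had Gad1 or Gad2, 21.6% had Trpm1 and 9.43% had Abca8a, which left the members as 39.4%. A count of 367 of 55837 distinct barcodes occurred in more than 1 library. No 2 members shared a barcode, and 16 members shared theirs with a non-member of another library. Doublets were not removed from the main sums, and Scrublet marked 2.90 to 9.55% of members per library at its highest-scoring 8% of nuclei.

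The members matched the name glycinergic only in part. Summed per library and scaled to the UMIs of the sum, in CPM, Slc6a9 lay between 553 and 649 (mean 623 ± 40.9, SD, n = 6 libraries), beside 576 ± 34.2 in AII-like nuclei. Pax6, a transcription factor of all amacrine cells, lay between 548 and 654 CPM, and Glra3, a glycine receptor subunit, between 267 and 441 CPM. Tfap2a and Tfap2b, transcription factors of amacrine development, lay between 45.5 and 62.2 CPM and between 208 and 304 CPM. Both were lower than in the GABAergic nuclei, which carried 194 ± 13.8 and 421 ± 22.3 CPM, so these 2 markers were not particular to the members. Glra3, Tfap2a and Tfap2b were also very uneven across the members, as the clusters show.

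Just inside the limit, the 671 members with exactly 2 Slc6a9 UMIs held 317 CPM of Glra3, 555 of Pax6, 252 of the cone gene Arr3 and 0.324% of their UMIs in 20 rod genes. Just outside it, 2422 otherwise eligible nuclei with 1 Slc6a9 UMI held 154, 336 and 605 CPM and 0.679%, at a median of 2397.5 UMIs against 4151. The 395 members with 4 or more Slc6a9 UMIs held 286 CPM of Glra3, 690 of Pax6, 56.5 of Arr3 and 0.131% rod RNA. Pax6 was thus higher, and rod and cone RNA lower, with each step in Slc6a9, while Glra3 was not ordered.

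**Figure D1:**
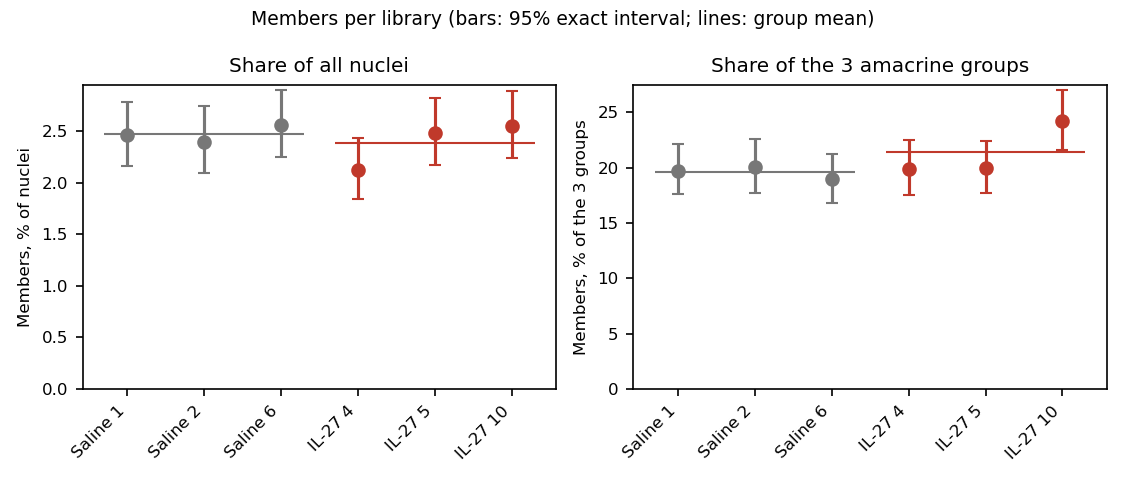
Members per library as a percent of all nuclei (left) and of members plus AII-like plus GABAergic nuclei (right). Points are libraries with 95% exact binomial intervals and lines are group means: the left share ran from 2.12 to 2.56% with overlapping groups, and on the right IL-27 replicate 10 stood above the other 5 libraries at 24.2%.

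Members made up 2.46%, 2.40% and 2.56% of nuclei after saline and 2.12%, 2.48% and 2.55% after IL-27. The lowest value was IL-27 replicate 4, whose 95% Clopper-Pearson interval of 1.84 to 2.43% covers counting error only, and the groups overlapped. The mean was 2.47 ± 0.0790% for saline and 2.38 ± 0.233% for IL-27, a difference of -0.0890 percentage points (2-sided exact permutation test, n = 3 and 3, p = 0.800). With 3 against 3 libraries this test cannot give a p under 0.1. As a share of members plus AII-like plus GABAergic nuclei, members were 19.7%, 20.1% and 19.0% after saline and 19.9%, 20.0% and 24.2% after IL-27 (difference 1.77 percentage points, exact permutation p = 0.300). Without IL-27 replicate 10 that difference was 0.343 points. With each nucleus thinned to 3000 UMIs, which leaves 4578 to 6184 of the 8868 to 9885 nuclei per library, the shares of all nuclei were 2.85 ± 0.0743% and 2.85 ± 0.335%. With at least 3 Slc6a9 UMIs required, the groups did not overlap: the shares of all nuclei were 1.33%, 1.22% and 1.33% after saline and 1.17%, 1.18% and 1.18% after IL-27, a difference of -0.113 points with the smallest p the test allows (exact permutation p = 0.10). Depth separated the groups as well: the median UMIs of all nuclei were 3959, 3808 and 3905 after saline and 3256, 3786 and 2898 after IL-27. A limit set in UMIs depends on depth, and the part of depth in this difference was not tested.

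Leiden clustering of the members without the rule genes gave 15 clusters, which are described by their leading genes and were not tested, since the same counts made them. Cluster 1 was the largest, with 373 nuclei (27.3%, between 22.1 and 31.7% of each library's members). Its leading genes were Esr1, the estrogen receptor alpha, at 1039 CPM against 62.5 in the other members, Igf1, insulin-like growth factor 1, at 600 against 39.1, and Angpt1, an angiopoietin, at 693 against 61.9. Grik3, a kainate receptor subunit, stood at 291 against 22.8 CPM. The same cluster carried the glycine receptor subunit Glra2 at 566 CPM but Tfap2a at 5.89 and Tfap2b at 15 CPM, the transcription factors Ebf1 at 1342 and Ebf3 at 1060 CPM, and the neurotrophin Bdnf at 123 CPM.

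Cluster 2 (182 nuclei, 13.3%) was led by Pcsk6, a proprotein convertase, at 409 CPM against 6.94, the metalloprotease Tll1 at 1258 against 52.6, and neuregulin Nrg1 at 18697 against 1243 CPM. It also held the AII genes Dab1, a reelin signalling adaptor, at 8119 CPM, Prox1 at 1092 CPM and Nfia at 1564 CPM, and Tfap2b at 702 CPM. Cluster 14 (17 nuclei) had Onecut1, Tll1 and Gfra1 among its leading genes, all 3 higher in AII-like nuclei than in members, and Scrublet marked 64.7% of it. Together these 2 clusters held 14.6% of members although no member had a Gjd2 UMI: 15.6%, 15.5% and 18.3% after saline and 16.1%, 15.3% and 7.08% after IL-27, the last being replicate 10.

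Cluster 4 (138 nuclei, 10.1%) was led by Tmem132c at 929 CPM against 8.70, the receptor phosphatase Ptprk at 2559 against 66.5, the neurexin ligand Nxph2 at 704 against 14.1, and the thyrotropin-releasing hormone receptor Trhr at 348 against 6.73 CPM. It carried all 3 markers, with Glra3 at 249, Tfap2a at 180 and Tfap2b at 499 CPM. Cluster 6 (76 nuclei), led by the secreted factor Tafa1 at 4082 CPM against 165, Trhde, which degrades thyrotropin-releasing hormone, at 4648 against 244, and the AMPA receptor partner Shisa9 at 3302 against 173, held Glra3 at 1073 and Tfap2b at 865 CPM. Cluster 13 (28 nuclei) had Bnc2 at 1441 CPM against 3.14, Sgcz at 18499 against 289 and Glra3 at 1698 CPM. Cluster 7 (62 nuclei), with Il1rapl2 at 2694 CPM against 164 and the axon guidance receptor Robo3 among its leading genes, had the highest Ebf1 and Pax6 of the 15, at 3339 and 1042 CPM.

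Other clusters carried Slc6a9 with little Tfap2a or Tfap2b. Cluster 8 (59 nuclei) had the highest Glra3, at 2494 CPM, with Tfap2a at 5.54 and Tfap2b at 13.9 CPM, and was led by the protocadherin Pcdh7 at 5120 CPM against 196 and the muscarinic receptor Chrm2 at 1568 against 86.7. Cluster 5 (87 nuclei) was led by the contactin Cntn5 at 5943 CPM against 166 and the potassium channel subunit Kcnmb2 at 1615 against 54.6, with Glra3 at 41.0 CPM. Cluster 11 (42 nuclei) was led by Pcdh17 at 1626 CPM against 65.2 and the neuregulin receptor Erbb4 at 1495 against 77.5, with Nfib at 2027 CPM. The transcription factors Ebf1 and Ebf3 on one side and Tfap2b on the other were high in largely separate clusters, with Ebf1 at 47.5, 47.9 and 25.1 CPM in clusters 2, 6 and 13. Cluster 4 was the exception, with Ebf1 at 962 CPM beside Tfap2b at 499 CPM. Cluster 7 had Ebf1 at 3339 CPM and Tfap2b at 206 CPM, which is under the mean of all members.

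Some clusters were led by genes of other cell types. Cluster 3 (153 nuclei, a median of 1878 UMIs) was led by the rod genes Pde6a, at 1003 CPM against 28.9, and Sag, at 3726 against 196, and held Pax6 at 190 CPM. Cluster 9 (52 nuclei) was led by the cone genes Arr3, at 3982 CPM against 49.8, and Opn1mw, at 2485 against 27.8. Together they took 15.2%, 16% and 12.0% of members after saline and 14.6%, 8.73% and 23.3% after IL-27, so that IL-27 replicates 5 and 10 lay at the 2 ends. Cluster 10 (48 nuclei, a median of 5202.5 UMIs, 2.08% marked by Scrublet) held the retinal pigment epithelium gene Rpe65 at 485 CPM against 0.153. It was also high in Ebf3, and whether its nuclei are amacrine cells was not tested. Cluster 12 (37 nuclei, 40.5% marked by Scrublet) was led by Nxph1 at 1245 against 5.63, Zfp804b at 5405 against 167 and Grik1 at 3158 against 167. Cluster 15 (11 nuclei) had Mecom at 2084 against 3.23 and Fbln1 at 2133 against 6.31 CPM and came from 3 libraries. Each comparison was therefore repeated without clusters 3, 9, 10, 12, 14 and 15 (318 nuclei, 23.3% of members, from 14.8% in IL-27 replicate 5 to 35% in IL-27 replicate 10), an alternative chosen after seeing the data.

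**Figure D2:**
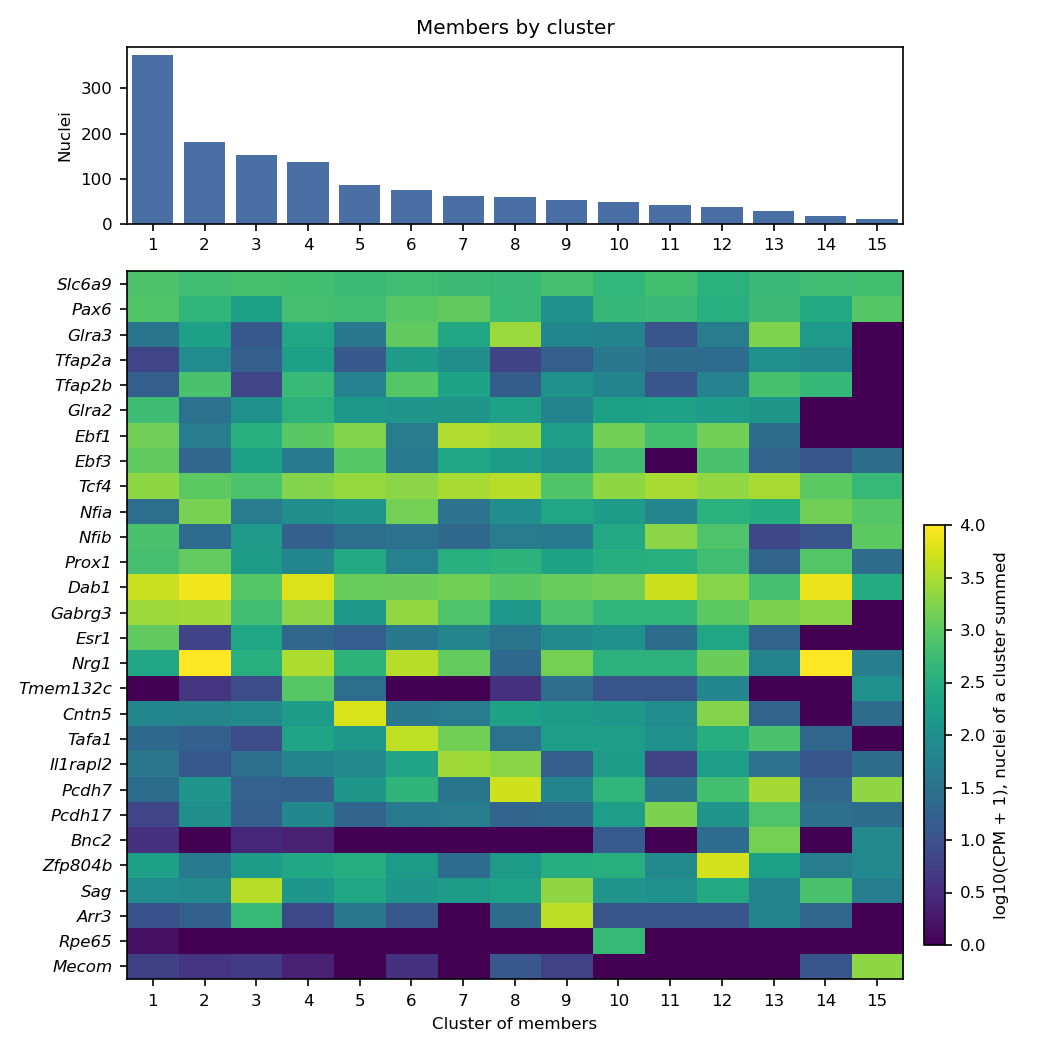
Number of members in each of the 15 clusters (top) and the level of 28 genes in each cluster, nuclei summed, as log10(CPM + 1) in colour (bottom). Slc6a9 was present throughout (361 to 758 CPM), which the rule required of every member. Tfap2b was high in clusters 2, 4, 6, 13 and 14 and intermediate in cluster 7, and Ebf3 was high in clusters 1, 5, 10 and 12.

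Members were compared with GABAergic nuclei of the same libraries to see what separates the transmitter classes. Of 13730 genes tested, 2430 (17.7%) were higher and 2498 (18.2%) lower in members, 35.9% in all (edgeR quasi-likelihood test, library as a block, Benjamini-Hochberg adjusted p under 0.05), with a median log2 fold change over all genes of 0.02. In summed CPM the glycine receptor genes Glra2 and Glra3 and the transcription factor genes Ebf1, Ebf3, Tcf4 and Prox1 were higher. Genes for GABA transport, acetylcholine and most of the neuropeptides that could be tested were lower. With nuclei under 3000 UMIs left out and the others thinned to 3000, 1115 members and 4684 GABAergic nuclei remained, and of 10990 genes tested 1521 were higher and 1709 lower. Of the 4928 calls, 3854 were made again without the 6 clusters in the same direction, and 216 genes had the opposite sign. Against the 3490 GABAergic nuclei with no UMI of the other 4 genes either, 4364 calls were made again in the same direction and 42 genes had the opposite sign.

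Among 14 tested genes of glycine transport, synthesis and receptors, 3 were higher and 7 lower in members, with a median of -0.14. Glra2 lay between 245 and 302 CPM in members (median 261) and between 100 and 116 in GABAergic nuclei (median 110), with no overlap, a log2 fold change of 1.21 ± 0.07 (SE, adjusted p = 6.08e-13). Summed Glra3 lay between 267 and 441 CPM (median 289) against 180 to 214 (median 204), a change of 0.55 ± 0.07 (adjusted p = 2.10e-06). IL-27 replicate 5 held its highest member value. Glra3 was nonetheless seen in fewer members (30.5%) than GABAergic nuclei (44.0%), and in 28.2% against 31.9% with nuclei thinned as above. Cluster 8 held 2494 CPM of it and the other members together 191 CPM, so the higher sum does not describe the members as a whole. The rarer subunit Glra4 was at 19.2 ± 4.83 against 5.74 ± 1.80 CPM (1.70 ± 0.23). Glra1, the subunit of the fast receptor of spinal cord, was lower, at 12.7 ± 2.97 against 45 ± 8.20 CPM (-1.90 ± 0.15). Slc6a5, the neuronal glycine transporter of spinal cord and brainstem, was at 60.8 ± 14.8 against 50.7 ± 5.80 CPM and did not pass the test (0.19 ± 0.09, edgeR adjusted p = 0.125). Its change without the 6 clusters was 0.45 and passed (adjusted p = 0.000168). The amino acid transporter Slc38a2, which supplies neurons with glutamine, was at 59.1 ± 5.53 against 111 ± 7.54 CPM (-0.98 ± 0.08), and the vesicular transporter Slc32a1, which loads both glycine and GABA, at 56.2 ± 9.79 against 72.4 ± 15.4 CPM (-0.43 ± 0.08).

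Of 20 tested GABA genes 2 were higher and 12 lower, with a median of -0.47. Against the stricter set of GABAergic nuclei 6 were higher and 10 lower (median -0.21). The GABA transporter Slc6a11 was at 22.8 ± 7.48 CPM in members against 249 ± 16 CPM in GABAergic nuclei, a log2 fold change of -3.54 ± 0.11. The receptor subunits Gabrb1 (143 ± 16.5 against 480 ± 52.6 CPM) and Gabra2 (132 ± 23.1 against 484 ± 43.2 CPM) were lower as well. Gabrg3 went the other way: it lay between 1297 and 1884 CPM in members and between 247 and 302 CPM in GABAergic nuclei, a change of 2.57 ± 0.08 (edgeR adjusted p = 6.14e-18). Within the members Gabrg3 was at 2549, 2803 and 2262 CPM in clusters 1, 2 and 6 and at 133 and 136 CPM in clusters 5 and 8.

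Of 25 glutamate receptor genes 5 were higher and 15 lower (median -0.50). The kainate subunits Grik2 (2844 ± 151 against 1100 ± 57.1 CPM, 1.30 ± 0.05) and Grik3 (96.1 ± 15.8 against 14.3 ± 2.11 CPM, 2.67 ± 0.11) were higher, while the NMDA subunit Grin2a (92.7 ± 19.9 against 366 ± 13.4 CPM, -2.06 ± 0.08) and the metabotropic receptor Grm7 (689 ± 152 against 1957 ± 96.5 CPM, -1.60 ± 0.07) were lower. Grm3, a presynaptic and glial metabotropic receptor, was also lower, at 41.6 ± 16.2 against 229 ± 28.9 CPM (-2.54 ± 0.12). Of the other kainate subunits, named after their values were seen, Grik4 (4.63 ± 3.37 against 49.7 ± 5.09 CPM, -3.48 ± 0.19) and Grik1 (-0.77 ± 0.07) were lower, and Grik5 did not pass (-0.00 ± 0.08).

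Of 31 amacrine transcription factors 18 were higher and 11 lower, with a median of 0.59. Ebf3, a helix-loop-helix factor, lay between 365 and 532 CPM in members (median 445) and between 6.23 and 18.9 CPM in GABAergic nuclei (median 13.1), a log2 fold change of 5.07 ± 0.12 (edgeR adjusted p = 2.67e-19). Ebf1 lay between 868 and 1226 CPM (median 1061) against 80.7 to 131 CPM (3.40 ± 0.11). Tcf4 was at 1922 ± 137 against 297 ± 27.1 CPM (2.63 ± 0.06), Prox1 at 474 ± 41.4 against 75.9 ± 7.17 CPM (2.57 ± 0.06) and Pax6 at 607 ± 37.2 against 495 ± 30.4 CPM (0.23 ± 0.06). The Pax6 call was lost against the stricter set of GABAergic nuclei (0.12, edgeR adjusted p = 0.0811). The homeodomain factors Meis2 (96.9 ± 31.4 against 1340 ± 63.3 CPM, -3.88 ± 0.10) and Zfhx3 (56.6 ± 6.20 against 609 ± 43.1 CPM, -3.50 ± 0.07) were lower. So were Tfap2a (-1.86 ± 0.07, adjusted p = 4.86e-16) and Tfap2b (-0.83 ± 0.07, adjusted p = 5.43e-10), at the levels given above. Every library had the same direction for these 9 factors, and none of the 9 pairs of ranges overlapped.

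Genes that define cholinergic starburst amacrine cells were lower in 6 of 7 tested and higher in none (median -3.03). Only 3 of the 8 listed genes passed the count filter in members alone, so most were tested through their level in GABAergic nuclei. Chat was seen in 15.5% of GABAergic nuclei, 0.293% of members and 0.231% of AII-like nuclei. The last 2 groups exclude Gad1 and Gad2 by rule, so these directions are a description and not particular to members. Chat, which makes acetylcholine, had 4 UMIs in all members (0.571 ± 0.443 CPM) and stood between 60 and 74.6 CPM in GABAergic nuclei (-6.84 ± 0.24). The choline transporter Slc5a7 was at 1.45 ± 1.91 against 54.7 ± 11.1 CPM (-5.27 ± 0.27), and Isl1 at 12.3 ± 2.39 against 96.6 ± 13.7 CPM (-3.03 ± 0.11). Of 22 listed neuropeptide and neuromodulator genes 9 could be tested and 8 were lower, among them Vip (4.32 ± 1.41 against 37.6 ± 11.7 CPM), substance P precursor Tac1 (5.96 ± 3.93 against 18.7 ± 3.92 CPM), nitric oxide synthase Nos1 (1.74 ± 0.936 against 11.3 ± 1.44 CPM) and the peptide gene Cartpt (52.9 ± 9.24 against 84.9 ± 21.1 CPM). Only 2 of the 22 passed the count filter in members alone. Most of the 9 were thus tested through their level in GABAergic nuclei, so this count of directions is a description.

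Over all genes with at least 50 CPM in the higher group, the largest differences toward members were in Spink13, a serine protease inhibitor, between 318 and 527 CPM against 4.0 to 10.8 (5.95 ± 0.13), Nxph2 at 91.3 ± 11.2 against 1.65 ± 0.825 CPM (5.64 ± 0.16), Ebf3, and Esr1 between 219 and 416 CPM against 9.72 to 13.0 (4.80 ± 0.09). Lgr5, a receptor for R-spondins, lay between 935 and 1127 CPM against 32.3 to 50.1 (4.57 ± 0.08). The vascular growth factor Vegfc was at 205 ± 31.1 against 8.58 ± 1.63 CPM (4.50 ± 0.08), the growth factor Bmp6 at 87.5 ± 14.8 against 4.0 ± 1.12 CPM (4.34 ± 0.15) and the vesicle protein Lamp5 at 270 ± 24.4 against 16.3 ± 2.69 CPM (3.98 ± 0.07). The other 4 of these 12 genes were Ccdc24, Gm48003, A930009A15Rik and Spink10 (4.04 to 4.89). Ccdc24 overlaps Slc6a9, Spink10 overlaps Spink13, Gm48003 overlaps Cacna2d3 and A930009A15Rik overlaps Lgr5, each on the opposite strand of the GENCODE annotation, so their reads may not be separate signals. Ccdc24 in particular is no measure apart from the rule.

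Toward GABAergic nuclei the largest difference was in Gm38505, a gene model with no named function that overlaps Sox2ot on the opposite strand. It had no UMI in members of any library and 123 ± 16.8 CPM in GABAergic nuclei. With 3 counts over the 6857271 UMIs of all members as the limit (0.437 CPM), it was at least 281-fold lower than the GABAergic mean and at least 226-fold lower than the lowest GABAergic library. Sox2ot itself, a noncoding RNA that spans Sox2, was at 3.03 ± 1.30 against 302 ± 29.6 CPM (-6.68 ± 0.12), and the phosphodiesterase Pde11a at 2.79 ± 2.35 against 171 ± 14.5 CPM (-6.00 ± 0.20). Stxbp6, a syntaxin-binding protein, was at 13.1 ± 7.49 against 323 ± 16.6 CPM (-4.70 ± 0.14). Steap3, Prima1, Slc5a7, Fgf10, A330049N07Rik, Cpne4, 8030451A03Rik and Chat made up the other 8 of 12, all with a mean under 6 CPM in members. With so few counts in members, Gm38505 and most of these 12 genes were tested through their level in GABAergic nuclei, so their direction is a description.

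Voltage-gated channel genes moved both ways, 4 higher and 12 lower of 25. The calcium channel subunit Cacna2d3 lay between 1173 and 1403 CPM against 105 to 163 (3.21 ± 0.08), while its relatives Cacna2d1 (111 ± 25.1 against 923 ± 30.4 CPM, -3.14 ± 0.09) and Cacna2d2 (37.4 ± 4.30 against 287 ± 11.2 CPM, -3.02 ± 0.08) were lower, as was the P/Q-type pore subunit Cacna1a (229 ± 19.2 against 786 ± 28.5 CPM, -1.85 ± 0.06). Of 32 adhesion and synaptic recognition genes 12 were higher and 15 lower: Lrfn5 (1461 ± 161 against 314 ± 21.9 CPM), Dscaml1 (650 ± 59.9 against 164 ± 11 CPM) and Cntn6 (436 ± 72.4 against 90.7 ± 10.4 CPM) were higher, and the teneurins Tenm1 (167 ± 17.4 against 673 ± 39.0 CPM) and Tenm3 (185 ± 64.8 against 1245 ± 104 CPM) lower. Of 16 calcium-binding protein genes 8 were higher, led by Cabp1 (567 ± 43.3 against 127 ± 6.97 CPM, 2.08 ± 0.06), Necab1 (1.27 ± 0.06) and Hpca (2.16 ± 0.13), and 4 were lower. The glutamate transporter Slc1a3, usually a glial gene, lay between 106 and 171 CPM in members and between 32.7 and 55.4 CPM in GABAergic nuclei (1.74 ± 0.11). The other 8 Müller and astrocyte genes gave 1 higher call and 1 lower. Against the stricter set of GABAergic nuclei, which has no UMI of the Müller gene Abca8a, 5 of 8 tested genes of this list were higher and 1 lower (median 0.33, against 0.05).

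**Figure D3:**
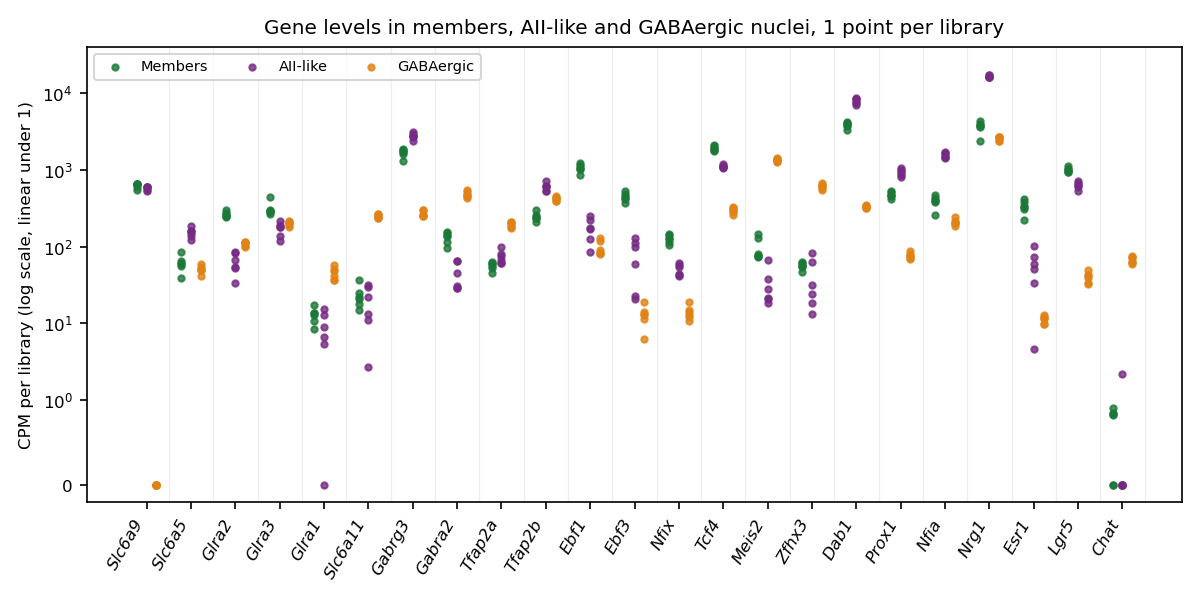
CPM per library of 23 genes in members, AII-like and GABAergic nuclei, on a log axis that is linear under 1. Each point is 1 of 6 libraries: Ebf1 in members (868 to 1226 CPM) lay above both other groups, whereas Dab1 in members (3281 to 4159 CPM) lay between GABAergic (321 to 344 CPM) and AII-like nuclei (6997 to 8590 CPM).

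Genes of other cell types moved with this comparison and their part in it was not tested. All 20 rod genes were higher in members (median 1.10, summed level 1334 to 3645 CPM against 699 to 1232 CPM in GABAergic nuclei), with IL-27 replicate 10 the highest. Without the 6 clusters 3 were higher and 5 lower (median -0.06), and Sag turned from 1.61 to -0.29. Of 9 cone genes 8 were higher (380 to 634 against 186 to 280 CPM), and without the 6 clusters 1 was higher and 4 lower of 8. Bipolar genes were lower in 6 of 10 and higher in none (743 to 881 against 1108 to 1331 CPM). The GABAergic nuclei were not filtered on the bipolar gene Trpm1 and held 147 ± 28.5 CPM of it. Against the stricter set the direction turned, with 3 bipolar genes higher and 1 lower of 9 and a median of 0.54 against -0.58. The differences named above for glycine, GABA, glutamate receptor, transcription factor, starburst, peptide, channel, adhesion and calcium-binding genes kept their direction and side of the threshold without the 6 clusters, Slc6a5 apart.

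Members were then set against AII-like nuclei, which differ from them by rule only in Gjd2 (288 ± 22.2 CPM in AII-like nuclei). Of 8808 genes 1179 (13.4%) were higher and 932 (10.6%) lower in members, 24.0% in all (edgeR, library as a block), with a median over all genes of -0.02. Of the 2111 calls, 1529 were made again without the 6 clusters in the same direction, and 78 genes had the opposite sign. Ebf1, Ebf3 and many GABA, glutamate receptor and adhesion genes were higher in members, and the AII genes Dab1, Prox1 and Nfia lower.

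Of the 4 tested AII genes 3 were lower (median -1.09). Nfia lay between 255 and 467 CPM in members and between 1443 and 1691 CPM in AII-like nuclei (-2.10 ± 0.10, adjusted p = 1.02e-11), and IL-27 replicate 10 held the lowest member value. Dab1 was at 3847 ± 312 against 7911 ± 618 CPM (-1.13 ± 0.07) and Prox1 at 474 ± 41.4 against 929 ± 91.2 CPM (-1.06 ± 0.07). Calb2, which encodes calretinin, was at 38.0 ± 9.99 against 37.1 ± 9.23 CPM (-0.04 ± 0.18, edgeR adjusted p = 0.917). All 4 also stood in the comparison with GABAergic nuclei, where Dab1, Prox1 and Nfia were higher in members (3.47 ± 0.06, 2.57 ± 0.06 and 0.83 ± 0.09) and Calb2 lower (-0.80 ± 0.10). Cluster 2, which held 13.3% of members and was high in Dab1, Prox1 and Nfia, was not among the 6 clusters left out. Its part in these 3 values was not tested.

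The largest differences toward AII-like nuclei included Onecut1, at 14.8 ± 5.87 CPM in members against 93.1 ± 27.4 (-2.72 ± 0.20), Pcsk6 at 62.4 ± 14.3 against 356 ± 44.5 CPM (-2.61 ± 0.11), the GDNF receptor Gfra1 at 83.2 ± 14 against 422 ± 34.9 CPM (-2.44 ± 0.11), Tll1 at 219 ± 52.1 against 1045 ± 106 CPM (-2.37 ± 0.10), and the glycosyltransferase Galnt18 at 203 ± 27.9 against 973 ± 64.8 CPM (-2.35 ± 0.09). Nrg1 lay between 2378 and 4400 CPM in members and between 16049 and 17458 CPM in AII-like nuclei (-2.29 ± 0.10, edgeR adjusted p = 5.06e-12). The betaine and GABA transporter Slc6a12 was at 22.7 ± 6.42 against 108 ± 7.98 CPM (-2.33 ± 0.17). Slc6a5 was lower as well, at 60.8 ± 14.8 against 153 ± 22.5 CPM (-1.43 ± 0.14). For Nrg1, Pcsk6, Gfra1 and Tll1 the lowest member value was again IL-27 replicate 10, the library with the fewest members in clusters 2 and 14.

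Toward members the largest differences included Il1rapl2, an interleukin-1 receptor accessory protein-like gene, between 174 and 388 CPM against 0 to 71.7 (3.29 ± 0.27), the protease Adamts2 (3.11 ± 0.35), Chrm2 at 163 ± 31.2 against 19.7 ± 15.4 CPM (2.91 ± 0.23), the Wnt receptor Ror1 at 164 ± 34.3 against 21.9 ± 12.7 CPM (2.80 ± 0.18), the TGF-beta binding protein Ltbp1 (2.62 ± 0.22), Ebf1 at 1071 ± 124 against 172 ± 59.8 CPM (2.56 ± 0.14) and the GABA-B receptor partner Kctd16 at 471 ± 65.3 against 74.0 ± 27.6 CPM (2.56 ± 0.17). Arr3, the cone arrestin, was among them (162 ± 43.1 against 22.4 ± 23.5 CPM, 2.84 ± 0.28). It fell under the count filter without the 6 clusters, and against GABAergic nuclei its change turned from 2.33 to -1.13. In summed CPM Glra2 (265 ± 20.9 against 62.7 ± 19.6 CPM, 1.98 ± 0.14) and Glra3 (311 ± 64.8 against 170 ± 36.7 CPM, 0.76 ± 0.13) were higher in members than in AII-like nuclei too. The Glra3 ranges of 267 to 441 and 117 to 217 CPM did not overlap. Glra3 was nonetheless seen in fewer members (30.5%) than AII-like nuclei (42.1%), and after thinning in 28.2% against 30.8%.

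Of 16 GABA genes 10 were higher and 2 lower in members (median 0.90), among them Gabrb2 (237 ± 41.3 against 43.6 ± 26.8 CPM) and Gabra4 (35 ± 10.8 against 3.90 ± 3.05 CPM), while Gabrg3 was lower (-0.82 ± 0.07). Of 18 glutamate receptor genes 11 were higher and 3 lower (median 0.54). The metabotropic receptor Grm8 lay between 1987 and 2406 CPM against 335 to 568 (2.26 ± 0.09), and the AMPA subunit Gria3 was lower, at 680 ± 86.1 against 1562 ± 64.7 CPM (-1.30 ± 0.08). Of 31 adhesion genes 20 were higher and 8 lower (median 1.26), with Lrrtm4 at 1715 ± 137 against 335 ± 97.1 CPM (2.30 ± 0.11) and Dscam at 674 ± 78.1 against 145 ± 49.5 CPM (2.15 ± 0.12) higher and Sdk1 at 753 ± 135 against 2052 ± 88.1 CPM (-1.55 ± 0.10) lower. Tfap2b was lower, at 249 ± 31.9 against 602 ± 72.5 CPM (-1.37 ± 0.10). Tfap2a was lower too, at 56.2 ± 6.43 against 73.9 ± 13.8 CPM (-0.48 ± 0.13, edgeR adjusted p = 0.0113), a call that was lost without the 6 clusters (-0.23, adjusted p = 0.266). Rod genes were higher in 17 of 19 (median 1.05), and without the 6 clusters in 0 of 15.

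**Figure D4:**
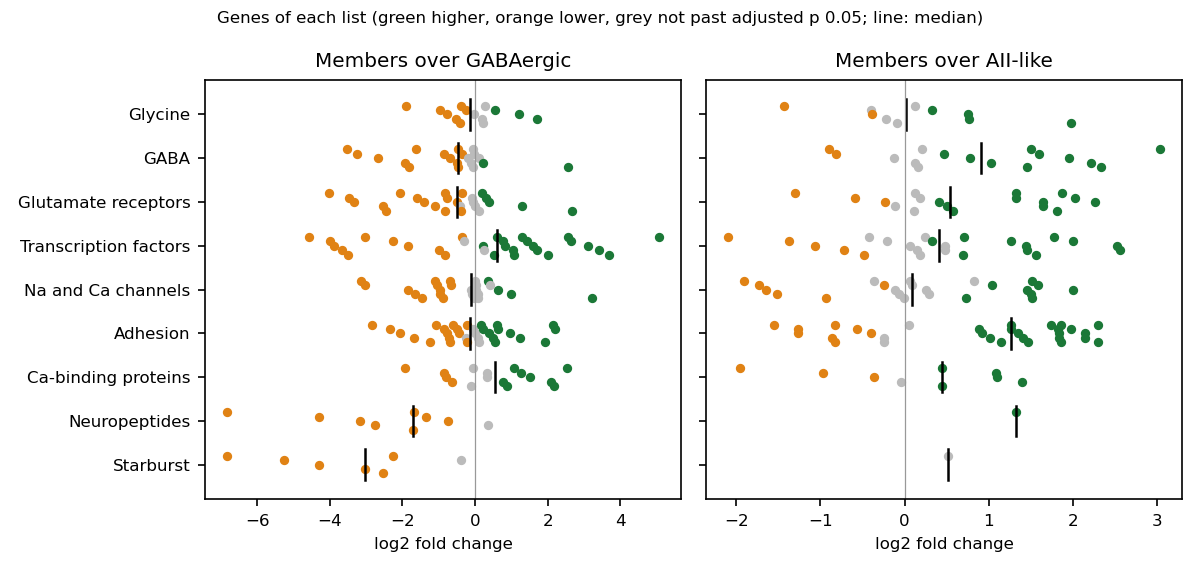
Log2 fold changes of the tested genes of each list, members over GABAergic nuclei (left) and over AII-like nuclei (right). Green points were higher and orange points lower at an edgeR adjusted p under 0.05, grey points did not pass, and black lines are medians, such as -3.03 for starburst genes on the left and 1.26 for adhesion genes on the right.

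The effect of IL-27 was then tested within the members. Of 10803 genes none was called in either direction (0%, edgeR quasi-likelihood test), while an unadjusted p under 0.05 was reached by 201 genes that were higher and 154 that were lower, and DESeq2 called 1 gene, Zfp804b. The median standard error was 0.23 on the log2 scale (0.14 at the 10th and 0.37 at the 90th percentile of genes), which is the precision that 3 libraries a group at this depth gave. In CPM, 424 genes (3.92%) had every IL-27 library above every saline library and 557 (5.16%) every one below, 9.08% in all.

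Zfp804b (ENSMUSG00000092094), which encodes a zinc finger protein, had the smallest adjusted p. It stood at 239, 315 and 200 CPM in saline replicates 1, 2 and 6 and at 640, 523 and 436 CPM in IL-27 replicates 4, 5 and 10, so that the groups did not overlap (1.10 ± 0.17, edgeR adjusted p = 0.0841, DESeq2 adjusted p = 9.14e-05). Cluster 12, with 6, 6 and 5 saline and 8, 6 and 6 IL-27 nuclei, held 5405 CPM of it and the other clusters together 167 CPM. Without the 6 clusters, cluster 12 among them, Zfp804b was at 130, 183 and 117 CPM after saline and 126, 215 and 162 CPM after IL-27, and the groups overlapped (0.26, adjusted p = 0.996). With Scrublet doublets left out the change was 0.52, and with at least 3 Slc6a9 UMIs required it was 0.18.

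Of the other genes with the smallest p whose groups did not overlap, none passed (edgeR adjusted p of 1.0 each). The metabotropic glutamate receptor Grm3 was at 36.1, 29.1 and 21.3 CPM after saline and 60.1, 42.1 and 60.9 CPM after IL-27 (0.92 ± 0.22). Arhgef28, a guanine nucleotide exchange factor, was at 9.23, 6.36 and 10.2 against 25.6, 21.4 and 18.9 CPM (1.34 ± 0.31), and the actin cross-linker Actn2 at 6.71, 7.27 and 9.38 against 23.7, 14.8 and 23.2 CPM (1.39 ± 0.33). In the other direction, the proneural factor Neurod2 was at 31.0, 40.9 and 36.7 CPM after saline and 14.8, 19.0 and 24.9 CPM after IL-27 (-0.86 ± 0.24), and ceruloplasmin Cp, a copper-carrying ferroxidase, at 82.2, 116 and 91.2 against 43.4, 63.5 and 69.5 CPM (-0.69 ± 0.19). For Cp the sign turned without the 6 clusters (0.23) and with at least 3 Slc6a9 UMIs (0.18). The gene models Gm45904, which overlaps Cntnap4 on the opposite strand (1.83 ± 0.45), Gm47352 (-1.04 ± 0.27) and Gm49171 (-1.17 ± 0.32) and the zinc finger gene Zfp395 (-0.97 ± 0.26) complete these 10 genes.

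Genes of the IL-27 pathway were measured at low to moderate levels. The receptor Il27ra had 1 UMI in all members, in saline replicate 1, and was not tested. Its partner Il6st was at 39.4, 37.3 and 35.8 CPM after saline and 41.4, 47.0 and 54.1 CPM after IL-27 (0.36 ± 0.19), the kinase Jak1 at 73.8, 67.3 and 79.3 against 79.9, 82.5 and 83.2 CPM (0.17 ± 0.15), and the transcription factor Stat3 at 130, 142 and 139 against 144, 161 and 172 CPM (0.23 ± 0.13, edgeR adjusted p = 1.0). These 3 of 15 tested pathway genes had every IL-27 library above every saline library, against 3.92% of all genes, and were picked out after their values were seen. The median over the 15 was 0.07 and none passed.

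Of 23 tested interferon response genes 20 leaned higher (median 0.28), none passed and none separated the groups. Their summed level was 1099, 758 and 648 CPM in saline replicates 1, 2 and 6 and 604, 1129 and 1146 CPM in IL-27 replicates 4, 5 and 10, so saline replicate 1 lay close to the 2 high IL-27 libraries and IL-27 replicate 4 below every saline library. GABAergic nuclei had 883, 735 and 530 CPM after saline and 549, 995 and 1116 CPM after IL-27, with saline replicate 1 again the highest and IL-27 replicate 4 again the lowest of its group.

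Among the amacrine transcription factors 19 of 27 leaned lower (median -0.04) and 5 had every IL-27 library below every saline library, against 5.16% of all genes: Neurod2, Neurod4, Barhl2, Isl1 and Tfap2a, listed after their values were seen. Tfap2a was at 61.2, 60 and 62.2 CPM after saline and 52.3, 56.1 and 45.5 CPM after IL-27 (-0.24 ± 0.17), and Neurod4 at 70.5, 64.5 and 81.0 against 58.2, 58.6 and 58.3 CPM (-0.29 ± 0.16). The other markers overlapped: Glra3 was at 267, 300 and 280 against 288, 441 and 291 CPM (0.29 ± 0.16), and Tfap2b at 239, 304 and 261 against 239, 242 and 208 CPM (-0.21 ± 0.13). Slc6a9, used by the rule and so read only as values, was at 649, 593 and 647 after saline and 648, 553 and 649 CPM after IL-27. It stayed in the IL-27 test of members and, like every other gene there, was not called.

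No gene of any other list passed. Medians were 0.11 for 13 glycine genes (Slc6a9 among them), 0.01 for 19 GABA and 0.10 for 22 glutamate receptor genes, beside 0.00 for all genes. Channel genes leaned higher in 19 of 24 (median 0.15), with the R-type calcium channel Cacna1e at 41.1, 34.5 and 36.7 CPM after saline and 47.3, 58.6 and 58.3 CPM after IL-27 (0.56 ± 0.18). Adhesion genes had a median of 0.06, calcium-binding protein genes of -0.08 and cell death genes of 0.05. The GABA-B receptor subunit Gabbr2 stood at 111, 104 and 102 against 135, 132 and 146 CPM (0.40 ± 0.13), and the synaptic regulator Cplx3 at 85.6, 94.5 and 102 against 73.9, 56.9 and 74.7 CPM (-0.45 ± 0.16), each with no overlap and an edgeR adjusted p of 1.0. Every IL-27 library lay above every saline library for 2 of 19 GABA, 3 of 24 channel and 0 of 14 calcium-binding protein genes, against 3.92% of all genes. Every one lay below for 0, 1 and 1 of them, against 5.16%. Cacna1e, Gabbr2 and Cplx3 were picked out after their values were seen.

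Immediate early genes, which report recent activity or stress, leaned lower in 10 of 12 (median -0.29), with a summed level of 388, 344 and 382 CPM after saline and 314, 281 and 348 CPM after IL-27. Bdnf was at 62.9, 46.3 and 46.0 against 39.4, 33.8 and 30 CPM with no overlap (-0.58 ± 0.20, edgeR adjusted p = 1.0). In this list 2 of 12 genes had every IL-27 library below every saline library and 0 every one above, against 5.16% and 3.92% of all genes. In GABAergic nuclei 18 of 19 leaned lower (median -0.48). Heat shock genes, which encode protein chaperones, leaned lower in 17 of 19 (median -0.12), and their summed level of 1332, 1229 and 1310 CPM after saline and 1162, 1094 and 1218 CPM after IL-27 did not overlap.

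Markers of other cell types differed between libraries, and their part in the IL-27 comparison was not tested. The summed rod genes were at 2225, 1927 and 2240 CPM after saline and 1953, 1334 and 3645 CPM after IL-27, the last 2 being the lowest and highest of all 6. Cone genes were at 591, 617 and 561 against 607, 380 and 634 CPM. The 6 horizontal cell genes were at 101, 104 and 98.9 CPM after saline and 87.7, 79.2 and 56.6 CPM after IL-27 with no overlap, at levels far under the 228 to 319 CPM of AII-like nuclei. Without IL-27 replicate 10, 1 gene was called in members, Zfp804b (1.24). Without the 6 clusters 3 were called higher, the potassium channel partner Dpp10 (2.04), Gm44196 (2.08) and March1 (0.94). Gm44196 and March1 were among the leading genes of the rod-led cluster 3, at 1628 CPM against 62.3 and 4237 CPM against 185, and stood at 1126 and 2572 CPM in the cone-led cluster 9. In the nuclei left after those clusters were removed, Gm44196 was at 9.35, 6.81 and 7.48 CPM after saline and 42.9, 18.2 and 43.0 CPM after IL-27.

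**Figure D5:**
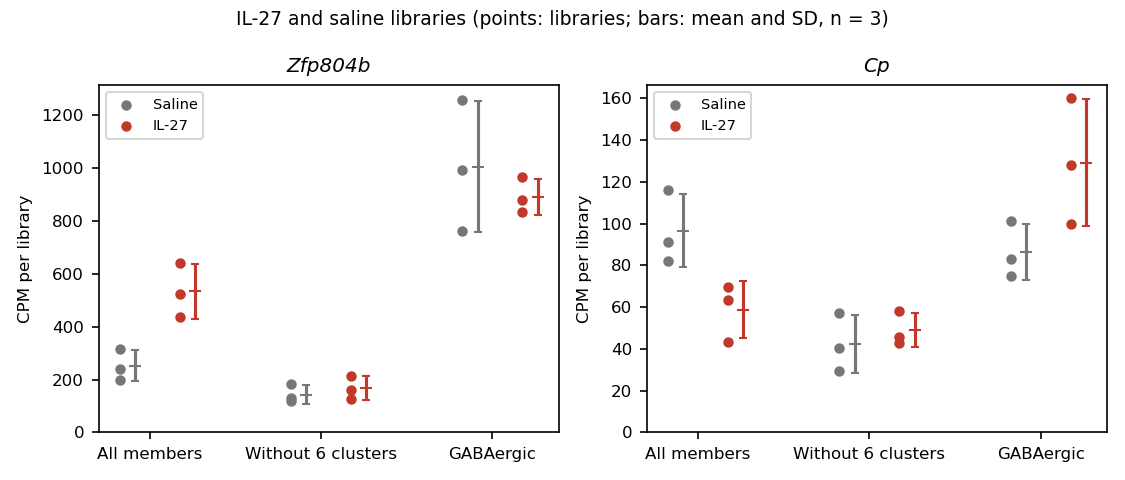
CPM of Zfp804b (left) and Cp (right) in the saline and IL-27 libraries for all members, for members without 6 clusters and for GABAergic nuclei. Points are libraries and bars are the mean and SD of 3: Zfp804b separated the groups in all members (200 to 315 against 436 to 640 CPM) and not without the 6 clusters (117 to 183 against 126 to 215 CPM).

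To ask whether IL-27 acted differently on members and on GABAergic nuclei, the difference between the 2 effects was tested with the library as a block. Of 14706 genes 2 passed (0.0136%), 1 in each direction (0.00680% each), and both involve the genes above. Zfp804b was at 992, 763 and 1258 CPM after saline and 964, 877 and 832 CPM after IL-27 in GABAergic nuclei, so its effect in members exceeded that in GABAergic nuclei by 1.22 ± 0.20 on the log2 scale (edgeR adjusted p = 0.0321). Cp was at 101, 82.9 and 74.9 against 99.6, 160 and 128 CPM in GABAergic nuclei, with 2 of the 3 IL-27 libraries above every saline library, which gave a difference of -1.30 ± 0.19 (adjusted p = 0.0109). Without the 6 clusters the 2 differences were 0.38 and -0.40, with adjusted p of 1.0, and with Scrublet doublets left out 0.67 and -1.21, neither passing.

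The same test in the GABAergic nuclei alone called 1 of 15577 genes (0.00642%), the protease Prss56, higher after IL-27 (3.85 ± 0.39, edgeR adjusted p = 0.00563). The call was lost without saline replicate 2, saline replicate 6 or IL-27 replicate 4. Of these GABAergic nuclei 9.02% had a UMI of the Müller gene Abca8a and Scrublet marked 8.73 to 12.2% per library, and the part of either in this call was not tested. In members Prss56 was at 0.839, 0 and 0 CPM after saline and 4.93, 3.30 and 6.86 CPM after IL-27, 18 UMIs in all, and was under the count filter. Its 3 IL-27 libraries lay above its 3 saline libraries in members as well. In AII-like nuclei it did not exceed 2.60 CPM in any library.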

How the data were processed

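Each deposited value is a whole UMI count. The authors counted with Cell Ranger (version 9.0.1 in the submitters' processing notes, 8.0.1 in the file headers) from frozen retinas, with no normalization, and deposited 56634 called barcodes and 32285 genes. The submitters' notes also name Seurat 5.2.1. The genome build was not given in the sources used here, so no positions are printed, and gene overlaps come from the GENCODE mouse annotation by symbol. The members, the gene lists and the tests were chosen with earlier results of these data known. No doublets were removed from the main sums.

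Counts were summed per library over members, AII-like and GABAergic nuclei, each library counting once. After filterByExpr at 10 counts and TMM scaling, edgeR 4.0.16 gave the tests (quasi-likelihood, limma 3.58.1, R 4.3.3), adjusted by Benjamini-Hochberg over all genes tested, at 0.05. DESeq2 1.42.0 served as an alternative. Cell group comparisons and the difference of IL-27 effects used the library as a block. Rule genes were left out of the tests of cell groups and of the difference of IL-27 effects, but not of the IL-27 tests within members or GABAergic nuclei. Fold changes are log2 of edgeR's fit with their SE, and CPM are counts per 1000000 UMIs of the sum. Shares and the summed levels of gene lists were compared by exact permutation (scipy 1.17.1), the shares with intervals that cover counting error only. Members were clustered with scanpy 1.11.5 (2000 variable genes, 20 components, 15 neighbours, Leiden at 0.5). Fits were tested on simulated counts.

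Named genes were, for each cell group comparison, up to 12 per direction with the largest change among those past 0.05 at 50 CPM or more with 1 direction in all 6 libraries, for IL-27 the 5 per direction with the smallest p and no overlap, those called in the difference of effects, the rule genes, and up to 5 per list by p. Some genes that this rule names are not reported here. Alternatives were DESeq2, its size factors, other filters, the threshold on Slc6a9, Scrublet, outlier nuclei over 2 median absolute deviations, thinning to 3000 UMIs, a stricter GABAergic rule, no library block, the Xist level as a covariate, and each library left out.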

Additional observations from a re-analysis of the deposited data

Results flagged for a closer look

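The response to IL-27 differed between members and GABAergic nuclei for 2 genes, by the test of the difference itself in edgeR with the library as a block. For Cp the log2 fold change in members minus that in GABAergic nuclei was -1.30 ± 0.19 (SE, edgeR adjusted p = 0.0109), with 3 of 3 IL-27 libraries below every saline library in members. For Zfp804b the difference was 1.22 ± 0.20 (edgeR adjusted p = 0.0321), with 3 of 3 IL-27 libraries above every saline library in members and overlapping groups in GABAergic nuclei. Without the 6 clusters led by genes of other cell types or rich in doublets, a setting added after seeing the data, the differences were -0.40 and 0.38 and neither passed. Cluster 12, which was among the 6, held 5405 CPM of Zfp804b against 167 CPM in the other members. What the 2 differences come from was not tested.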

How the results depend on the processing

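No paired analysis was possible. A mouse received either IL-27 or saline in 1 eye, so saline replicates 1, 2 and 6 and IL-27 replicates 4, 5 and 10 came from different animals. The labels name no pairs. Precision was limited by 1014263 to 1212447 UMIs of members per library and 3 libraries a group. Leaving out the 6 clusters, and DESeq2 and leave-one-out for GABAergic nuclei, were added after seeing the data.

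The IL-27 difference in the share of nuclei turned to 0.00184 percentage points after thinning and ran from -0.173 to 0.0439 with 1 library left out, positive only without IL-27 replicate 4. With doublets left out it was -0.146, and with at least 3 Slc6a9 UMIs -0.113 (exact permutation p = 0.10). Every IL-27 library was shallower than every saline library, and the part of depth in the value of -0.113 was not tested. Genes higher after IL-27 in members numbered 1 with DESeq2 and with the Xist covariate, 8 without a filter (2 lower), 3 without the 6 clusters, and 0 to 1 with 1 library left out. Of 144 values of the 10 named genes, 136 kept direction and side of the threshold, 6 became past it, and Cp turned to 0.18 at 3 Slc6a9 UMIs and 0.23 without the 6 clusters. In GABAergic nuclei DESeq2 called 1 gene lower, Optc, and 0 to 2 were higher with 1 library left out.

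For the difference of effects, genes higher and lower numbered 24 and 5 without a filter, 0 and 1 with DESeq2 and at a filter of 30 counts, 0 and 0 with outlier nuclei or doublets left out or at 3 Slc6a9 UMIs, 1 (Dpp10) and 0 without the 6 clusters, and 0 to 6 and 0 to 3 with 1 library left out. Of 30 values for Cp and Zfp804b 18 no longer passed, none reversed. Against GABAergic nuclei thinning, which also leaves out nuclei under 3000 UMIs, gave 1521 higher. Against AII-like nuclei, DESeq2 gave 529 and thinning 575 lower, and no filter 1827 higher. All 408 and 378 values of the genes with the largest changes in these 2 comparisons kept their direction and side of the threshold where they could be tested. The causes were not tested.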
